A study of Arabidopsis thaliana with 22 samples.

Results

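The transcripts of 10 genes of chlorophyll synthesis and its control were followed, chosen by gene identifier from a table of 32833 Arabidopsis genes. They are the transcription factors GLK1 (AT2G20570, listed in RefSeq as GPRI1) and GLK2 (AT5G44190), the first committed enzyme HEMA1 (AT1G58290), the magnesium branch genes CHLH (AT5G13630), GUN4 (AT3G59400) and CRD1 (AT3G56940), the protochlorophyllide oxidoreductases PORA (AT5G54190), PORB (AT4G27440) and PORC (AT1G03630), and the chlorophyll b enzyme CAO (AT1G44446). The rule names genes by their roles and uses no measured value, but the genes were chosen with earlier results of these data known. All 10 were found in the table. The libraries were 22 QuantSeq libraries of whole 7-day-old Col-0 seedlings. QuantSeq reads start near the 3′ end of a transcript, so a transcript gives about the same number of reads whatever its length. The mutants were bes1-D, a dominant gain-of-function allele of the brassinosteroid (BR) transcription factor BES1 brought into Col-0, and baf1, a T-DNA insertion in the gene of an F-box protein that the study examined as a partner of BES1 in its degradation. Each was compared with WT. Seedlings grew on medium with 250 nM brassinazole (BRZ), an inhibitor of BR synthesis, or on DMSO control medium, called untreated below. The labels name continuous light for BRZ assays and long days for growth in general. There were 3 BRZ libraries of bes1-D, 4 of baf1 and 3 of WT, and 4 untreated libraries of each genotype. The sources used here do not say whether replicates came from separate plates or batches of seedlings, so p-values measure the spread between these libraries.

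Chlorophyll and heme are made in the plastid from glutamate through a shared tetrapyrrole pathway. Magnesium chelatase, which holds the CHLH subunit and is stimulated by the porphyrin-binding protein GUN4, commits protoporphyrin to chlorophyll. CRD1 is a subunit of the cyclase that closes the fifth ring, the POR enzymes reduce protochlorophyllide in a light-driven step, and CAO turns chlorophyllide a into chlorophyllide b. GLK1 and GLK2 are GARP-family factors known to activate many of these genes together with the antenna genes of photosystems I and II. PORA is best known from dark-grown seedlings, PORB from seedlings in the dark and the light, and PORC from green tissue in the light. BRs are known to favour growth in the dark over greening, and BES1 is a main transcription factor of the BR pathway.

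Values are the normalized reads the authors deposited, which add up to about the same total in every library. The depth before that scaling, estimated from genes with few reads, lay between 2120000 and 5140000 reads. Replicates correlated across genes with r from 0.945 to 0.977, where genes are not independent replicates. The labels were checked on 3 genes. BAF1 had 9.78 ± 3.03 normalized reads in untreated baf1 and 327 ± 49.2 in untreated WT (SD, n = 4 each). DWF4, a BR synthesis gene known to be held down by BR signalling, had 31.4 ± 4.97 normalized reads in untreated bes1-D and 106 ± 17.2 in untreated WT (SD, n = 4 each), and 229 ± 34.4 in WT on BRZ (SD, n = 3). CPD, another BR synthesis gene, had 111 ± 15.1 in untreated bes1-D and 294 ± 20.4 in untreated WT (SD, n = 4 each). In bes1-D on BRZ DWF4 had 36.7 ± 12.4 and CPD 111 ± 12.6 (SD, n = 3), both overlapping with untreated bes1-D. The BRZ label of bes1-D was therefore not checked by these genes. No pair of libraries was identical.

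The windows upstream of 4 of the genes are shown because CAO, CRD1 and PORA were lower in bes1-D on BRZ than in both other genotypes, while PORC was higher there than in WT. Each window holds the 250 bases before the annotated gene start in RefSeq assembly TAIR10.1, 5′ to 3′ on the gene's strand. Capitals mark the G-box CACGTG.
CAO, chr1:16851272-16851521, minus strand: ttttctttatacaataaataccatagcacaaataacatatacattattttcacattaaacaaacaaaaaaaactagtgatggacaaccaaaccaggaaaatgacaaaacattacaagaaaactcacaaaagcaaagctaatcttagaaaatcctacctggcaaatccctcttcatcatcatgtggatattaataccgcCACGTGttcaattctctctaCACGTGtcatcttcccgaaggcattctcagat
CRD1, chr3:21076255-21076504, plus strand: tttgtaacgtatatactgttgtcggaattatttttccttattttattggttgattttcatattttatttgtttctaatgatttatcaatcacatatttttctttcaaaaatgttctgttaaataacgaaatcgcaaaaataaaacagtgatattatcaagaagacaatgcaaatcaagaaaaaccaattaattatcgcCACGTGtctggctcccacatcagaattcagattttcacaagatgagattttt
PORA, chr5:21992815-21993064, minus strand: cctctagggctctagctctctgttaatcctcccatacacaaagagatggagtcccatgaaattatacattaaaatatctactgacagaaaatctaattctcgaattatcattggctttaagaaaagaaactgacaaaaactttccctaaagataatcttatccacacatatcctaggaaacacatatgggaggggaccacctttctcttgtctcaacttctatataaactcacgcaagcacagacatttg
PORC, chr1:907273-907522, plus strand: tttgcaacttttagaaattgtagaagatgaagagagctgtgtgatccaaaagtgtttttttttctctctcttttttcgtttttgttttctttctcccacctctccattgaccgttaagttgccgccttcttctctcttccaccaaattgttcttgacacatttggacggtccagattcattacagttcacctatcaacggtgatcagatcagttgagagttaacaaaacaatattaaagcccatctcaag

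Both strands of the windows of all 10 genes and of 27443 protein-coding genes were searched for motifs named for the BR and GLK factors. The G-box CACGTG, a site known for bHLH and bZIP factors and for BES1, was in 2 of the 10 windows, those of CAO and CRD1, and in 6.49% of all windows. It began 52 and 32 bases before the start of CAO and 52 bases before the start of CRD1. The BR response element was in none of the 10 windows, against 5.37% of all windows for CGTGTG and 1.57% for CGTGCG. The E-box CANNTG, which also matches every G-box, was in 6 of 10 windows and in 55.3% of all. CCAATC, a sequence linked to GLK factors, was in the windows of GUN4 and PORB and in 10.2% of all. A match is a description of letters, and binding was not measured.

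In untreated bes1-D, GLK2 was the 1 gene of the 10 that fell at an adjusted p below 0.05, where 3.44% of all tested genes fell. Tests were fitted with limma on log2(normalized reads + 1) across all genes averaging 10 or more normalized reads, with Benjamini-Hochberg adjustment, and this scale understates changes of genes with few reads. At the criterion of the study, an unadjusted p below 0.05 with a fold change above 1.1, GLK2, HEMA1, CHLH and CAO were lower, 4 of 9 tested genes against 8.06% of all genes. With 1 library left out the count ran from 1 to 3, and the call was kept in 8 of 8 fits for GLK2, 3 for CAO, 2 for HEMA1 and 1 for CHLH. PORA had too few reads to be tested there. On BRZ, 3 of the 10 genes fell in bes1-D at the adjusted threshold, PORA, CAO and CRD1, where 5.3% of all genes fell. PORA reached the minimum mean of 10 only through its WT libraries and so had to differ, which leaves 2 genes, CAO and CRD1, that did not depend on the filter in this way. PORC rose there, where 5.76% of all genes rose. CHLH was also lower at the study criterion, which made 4 lower genes beside 10.7% of all. PORA is among these 4 and again entered only through its WT libraries. Without a filter on low values none of these genes passed the adjusted threshold in bes1-D, untreated or on BRZ.

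In baf1, 0 of the 10 genes passed the adjusted threshold in limma, untreated or on BRZ, where 0.129% and 0.0488% of all genes did. At an unadjusted p below 0.05 the counts were 3 untreated and 2 on BRZ. The 3 untreated genes, GUN4, CRD1 and PORB, were all higher at the study criterion, where 6% of all genes were higher. With 1 library left out that count ran from 1 to 4, and the call was kept in 8 of 8 fits for CRD1, 6 for GUN4 and 4 for PORB. The 2 genes on BRZ were PORB, which was higher, and PORA, which was lower, against 5.6% of all genes in either direction. The call was kept in 7 of 7 fits with 1 library left out for PORA and in 2 for PORB.

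Where the libraries of a pair of groups are said below not to overlap, the share of all tested genes for which this held was 14.4% in bes1-D against WT untreated and 27.9% on BRZ, 6.46% in baf1 against WT untreated and 6.69% on BRZ, 11.4% in bes1-D against baf1 untreated and 18.0% on BRZ, and 7.72% for BRZ in baf1 and 10.5% for BRZ in WT. With 3 libraries against 3 the smallest two-sided exact permutation p is 0.1.

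**Figure D1:**
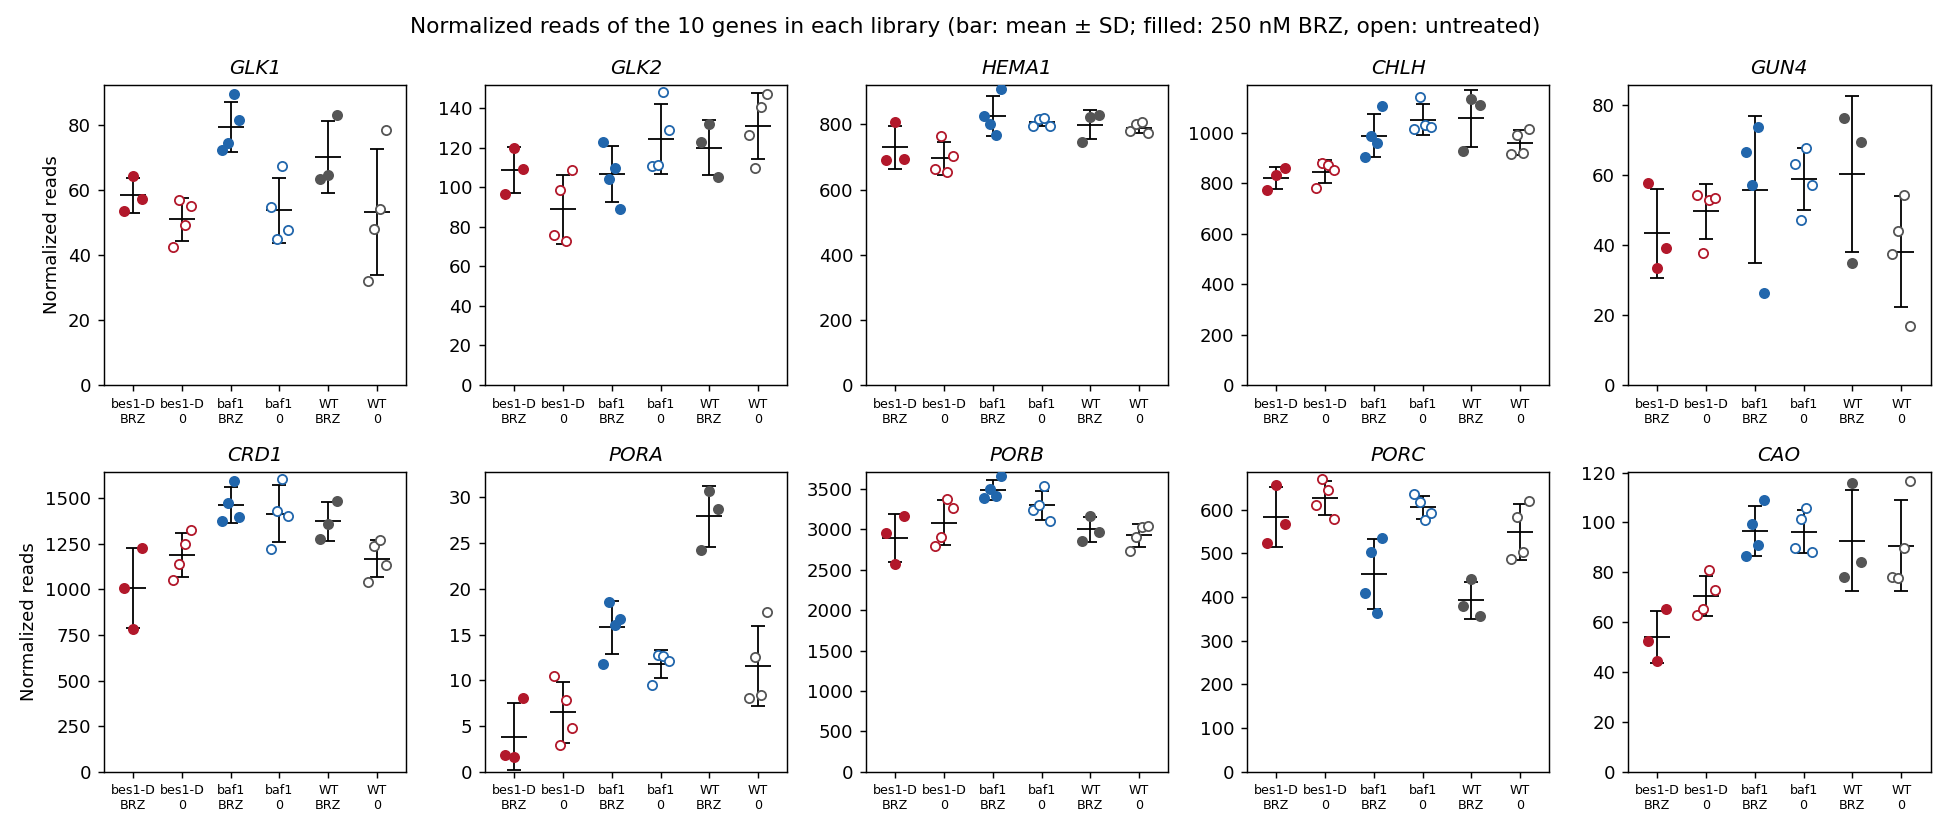
Normalized reads (vertical axes, from 0) of each gene in every library, by genotype and treatment, filled on BRZ and open when untreated, with the mean and SD as black bars. PORA stood highest in the 3 WT libraries on BRZ, between 24.2 and 30.7. Its mean was lowest in bes1-D on BRZ, where the 3 libraries, between 1.67 and 8.04, overlapped with untreated bes1-D.

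GLK2 separated bes1-D from the other genotypes in untreated seedlings. It had 75.8, 98.7, 73.0 and 109 normalized reads in untreated bes1-D libraries, against 111, 111, 148 and 129 in untreated baf1 libraries and 127, 110, 141 and 147 in untreated WT libraries. The highest bes1-D library lay just below the lowest library of each other group (exact permutation, two-sided, p = 0.0286 each, as low as 4 libraries against 4 can give). The log2 fold change was -0.56 (SE 0.16, limma adjusted p = 0.0342) against WT and -0.49 (SE 0.14, limma adjusted p = 0.0341) against baf1. The adjusted p in the comparison with WT reached 0.111 with single libraries left out, and the call was lost without WT replicate 1 or 4 or bes1-D replicate 1, 2 or 3. In the comparison with baf1 it reached 0.155, and the call was lost without baf1 replicate 3 or 4 or bes1-D replicate 1 or 3. On BRZ the genotypes overlapped, with 96.6 to 120 normalized reads in bes1-D, 89.1 to 123 in baf1 and 105 to 132 in WT. The difference between the bes1-D effect with and without BRZ was 0.42 (SE 0.23, limma adjusted p = 0.437), which did not pass.

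GLK1, the close relative of GLK2, had 42.4, 57.1, 49.3 and 55.3 normalized reads in untreated bes1-D, 54.9, 45.0, 67.5 and 47.7 in untreated baf1, and 32.1, 48.0, 54.2 and 78.7 in untreated WT. The untreated groups overlapped throughout. On BRZ it had 53.5, 64.4 and 57.3 in bes1-D, 72.5, 74.6, 89.6 and 81.5 in baf1, and 63.4, 64.6 and 83.1 in WT. In baf1 every BRZ library lay above every untreated one, with a log2 fold change of 0.57 (SE 0.16, limma adjusted p = 0.0933). That passed only the study criterion. The value in bes1-D was 0.20 (SE 0.19, adjusted p = 0.689) and in WT 0.46 (SE 0.25, adjusted p = 0.589, both from limma). The difference between the BRZ effects in baf1 and WT was 0.11 (SE 0.30), and that between bes1-D and WT was -0.26 (SE 0.32), both within their errors.

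HEMA1 encodes the glutamyl-tRNA reductase that starts the pathway. It had 665, 766, 653 and 703 normalized reads in untreated bes1-D, against 779, 801, 807 and 774 in untreated WT. All 4 bes1-D libraries lay below all WT libraries, and the log2 fold change of -0.18 (SE 0.09, limma adjusted p = 0.224) passed only the study criterion. On BRZ the groups overlapped, with 689 to 807 in bes1-D, 766 to 908 in baf1 and 747 to 828 in WT. In untreated baf1 it lay between 795 and 821.

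CHLH encodes the porphyrin-binding subunit of magnesium chelatase. It had 780, 878, 872 and 850 normalized reads in untreated bes1-D, against 1016, 1141, 1028 and 1020 in untreated baf1 and 914, 992, 921 and 1014 in untreated WT. The libraries of the 3 genotypes did not overlap, with bes1-D lowest and baf1 highest. CHLH fell by 0.31 on the log2 scale in bes1-D relative to baf1 (SE 0.08, limma adjusted p = 0.00894), a call that held with each library left out, where the adjusted p ran to 0.0377. Against WT the log2 fold change was -0.18 (SE 0.09) in bes1-D and 0.13 (SE 0.08) in baf1, with adjusted p = 0.219 and 0.587 from limma. On BRZ it had 774, 831 and 860 in bes1-D, 903 to 1106 in baf1, and 927, 1131 and 1111 in WT. The bes1-D libraries were again below those of both other genotypes, with a log2 fold change against WT of -0.36 (SE 0.13, limma adjusted p = 0.0853) that met the study criterion in 4 of 6 fits with 1 library left out.

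GUN4, the activator of magnesium chelatase, spread widely between replicates. It had 54.4, 37.8, 53.0 and 53.4 normalized reads in untreated bes1-D, 63.3, 47.1, 67.7 and 57.4 in untreated baf1, and 37.4, 44.2, 54.2 and 16.8 in untreated WT. The groups overlapped. The log2 fold change in untreated baf1 was 0.71 (SE 0.28, limma adjusted p = 0.394), and without WT replicate 5, the lowest library, it was 0.37. It missed the study criterion there and without baf1 replicate 3, where it was 0.64. On BRZ the libraries ran from 33.3 to 57.8 in bes1-D, 26.2 to 73.7 in baf1 and 34.9 to 76.5 in WT.

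CRD1, the cyclase subunit, had its lowest mean in bes1-D seedlings grown on BRZ. It had 1007, 784.5 and 1225 normalized reads there, against 1376, 1471, 1594 and 1398 in baf1 and 1275, 1356 and 1485 in WT on BRZ. Each bes1-D library was below every library of the other genotypes. CRD1 fell by 0.47 on the log2 scale relative to WT (SE 0.15, limma adjusted p = 0.046) and by 0.56 relative to baf1 (SE 0.14, limma adjusted p = 0.0222). The call against WT was lost without any of the 3 WT libraries or bes1-D replicate 3, with an adjusted p up to 0.213 and a smallest log2 fold change of -0.30. The call against baf1 was lost without baf1 replicate 2 or 3 or bes1-D replicate 3, with an adjusted p up to 0.116. Untreated, it had 1048 to 1324 in bes1-D, 1221 to 1603 in baf1 and 1040 to 1267 in WT. The change of the bes1-D effect with BRZ was -0.49 (SE 0.18, limma adjusted p = 0.23) and passed only the study criterion.

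Of the 3 oxidoreductase genes, PORA had few reads in light-grown seedlings, and on BRZ it gave a graded series without overlap. It had 1.8, 1.67 and 8.04 normalized reads in bes1-D on BRZ, 11.8, 18.6, 16.1 and 16.7 in baf1 on BRZ, and 24.2, 30.7 and 28.8 in WT on BRZ. The log2 fold change in bes1-D was -2.82 relative to WT (SE 0.50, limma adjusted p = 0.000629) and -2.03 relative to baf1 (SE 0.49, limma adjusted p = 0.0185). In both comparisons PORA passed the minimum mean of 10 only through the group where it was high, and without that filter the adjusted p was 0.135 and 0.183. These values are given as a description. Leaving out 1 library, PORA stayed above the minimum of 10 in 4 of 7 fits against baf1, and the call was lost without bes1-D replicate 1 or 3, with an adjusted p up to 0.0771. In baf1 against WT the log2 fold change was -0.80 (SE 0.28, limma adjusted p = 0.751), a call at the study criterion only (exact permutation, two-sided, p = 0.0286, as low as 4 libraries against 3 can give).

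Untreated, PORA had 10.5, 2.93, 7.87 and 4.80 normalized reads in bes1-D, 9.54, 12.8, 12.6 and 12.1 in baf1, and 8.1, 12.5, 8.35 and 17.4 in WT. The 3 genotypes overlapped, and the exact permutation test of bes1-D against WT gave p = 0.114. In order of mean level the 6 groups were bes1-D on BRZ (3.83 ± 3.64, n = 3), untreated bes1-D (6.51 ± 3.33, n = 4), untreated WT (11.6 ± 4.38, n = 4), untreated baf1 (11.8 ± 1.52, n = 4), baf1 on BRZ (15.8 ± 2.89, n = 4) and WT on BRZ (27.9 ± 3.35, n = 3), each as mean ± SD of normalized reads. Every neighbour in that order overlapped except WT on BRZ, which stood alone. The BRZ effect in WT was 1.25 on the log2 scale (SE 0.33, limma adjusted p = 0.136), with no overlap between the groups (exact permutation, two-sided, p = 0.0286, as low as these groups can give). Of the fits with 1 library left out, it passed the adjusted threshold in that without WT replicate 5 (adjusted p = 0.0235), the untreated library with the highest value. In baf1 the BRZ effect was 0.38 (SE 0.30) and the groups overlapped. The bes1-D groups also overlapped, with 1.67 to 8.04 on BRZ and 2.93 to 10.5 untreated. The change of the genotype effect with BRZ was -2.02 (SE 0.66, limma adjusted p = 0.179) in bes1-D and -0.87 (SE 0.41, limma adjusted p = 0.854) in baf1. Neither difference in BRZ response passed the adjusted threshold. In the bes1-D fit PORA reached the minimum mean of 10 only with the WT libraries on BRZ, so that value is a description.

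PORB, whose product does the same reaction, had far more reads than PORA, and how reads were divided between related genes was not tested. It had 2955, 2574 and 3161 normalized reads in bes1-D on BRZ, 3383, 3506, 3413 and 3660 in baf1 on BRZ, and 2861, 3168 and 2971 in WT on BRZ. The baf1 libraries on BRZ lay above all of the others, with log2 fold changes of 0.22 in baf1 against WT (SE 0.10, limma adjusted p = 0.879) and -0.27 in bes1-D against baf1 (SE 0.11, limma adjusted p = 0.179). Untreated, baf1 had 3244, 3308, 3534 and 3109, again above the WT range of 2733 to 3036, with a log2 fold change of 0.17 (SE 0.07, limma adjusted p = 0.428). The bes1-D libraries spread from 2792 to 3374. In WT the BRZ effect on PORB was 0.03 (SE 0.09).

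PORC had 525, 657 and 567 normalized reads in bes1-D on BRZ, against 380, 440 and 357 in WT on BRZ, and rose by 0.57 on the log2 scale (SE 0.14, limma adjusted p = 0.0113). Each bes1-D library was above each WT library. The call was lost without WT replicate 1 or 3 or bes1-D replicate 3, with an adjusted p up to 0.0753. In baf1 on BRZ it had 409, 503, 362 and 535. Untreated libraries lay closer together, with 612, 671, 645 and 580 in bes1-D, 635, 618, 577 and 592 in baf1, and 487, 583, 503 and 620 in WT. The BRZ effect was -0.11 in bes1-D (SE 0.11, adjusted p = 0.715), -0.44 in baf1 (SE 0.11, adjusted p = 0.0565) and -0.48 in WT (SE 0.12, adjusted p = 0.125, all from limma). The BRZ and untreated libraries did not overlap in WT or baf1, while those of bes1-D did. The effect in baf1 passed the adjusted threshold without baf1 replicate 2 or 4 on BRZ, with adjusted p as low as 0.00132. The change of the bes1-D effect with BRZ was 0.37 (SE 0.16, limma adjusted p = 0.318), so a difference in the BRZ response was not shown.

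CAO makes the chlorophyll b of the antenna. It had 52.5, 44.4 and 65.3 normalized reads in bes1-D on BRZ, against 86.7, 99.6, 90.9 and 109 in baf1 and 78.1, 116 and 84.3 in WT on BRZ. All bes1-D libraries lay below the others. CAO fell by 0.76 on the log2 scale relative to WT (SE 0.22, limma adjusted p = 0.0279) and by 0.84 relative to baf1 (SE 0.18, limma adjusted p = 0.00931). The call against WT was lost without WT replicate 2 or 3 or bes1-D replicate 3, with an adjusted p up to 0.141, and the call against baf1 was lost without bes1-D replicate 3 (adjusted p = 0.0528). Untreated, it had 63.1, 65.3, 80.8 and 72.8 in bes1-D, 89.7, 101, 106 and 88.2 in baf1, and 78.1, 77.9, 89.9 and 117 in WT. The bes1-D libraries were below all baf1 libraries, and the highest of them overlapped with WT, where the log2 fold change was -0.35 (SE 0.16, limma adjusted p = 0.215).

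**Figure D2:**
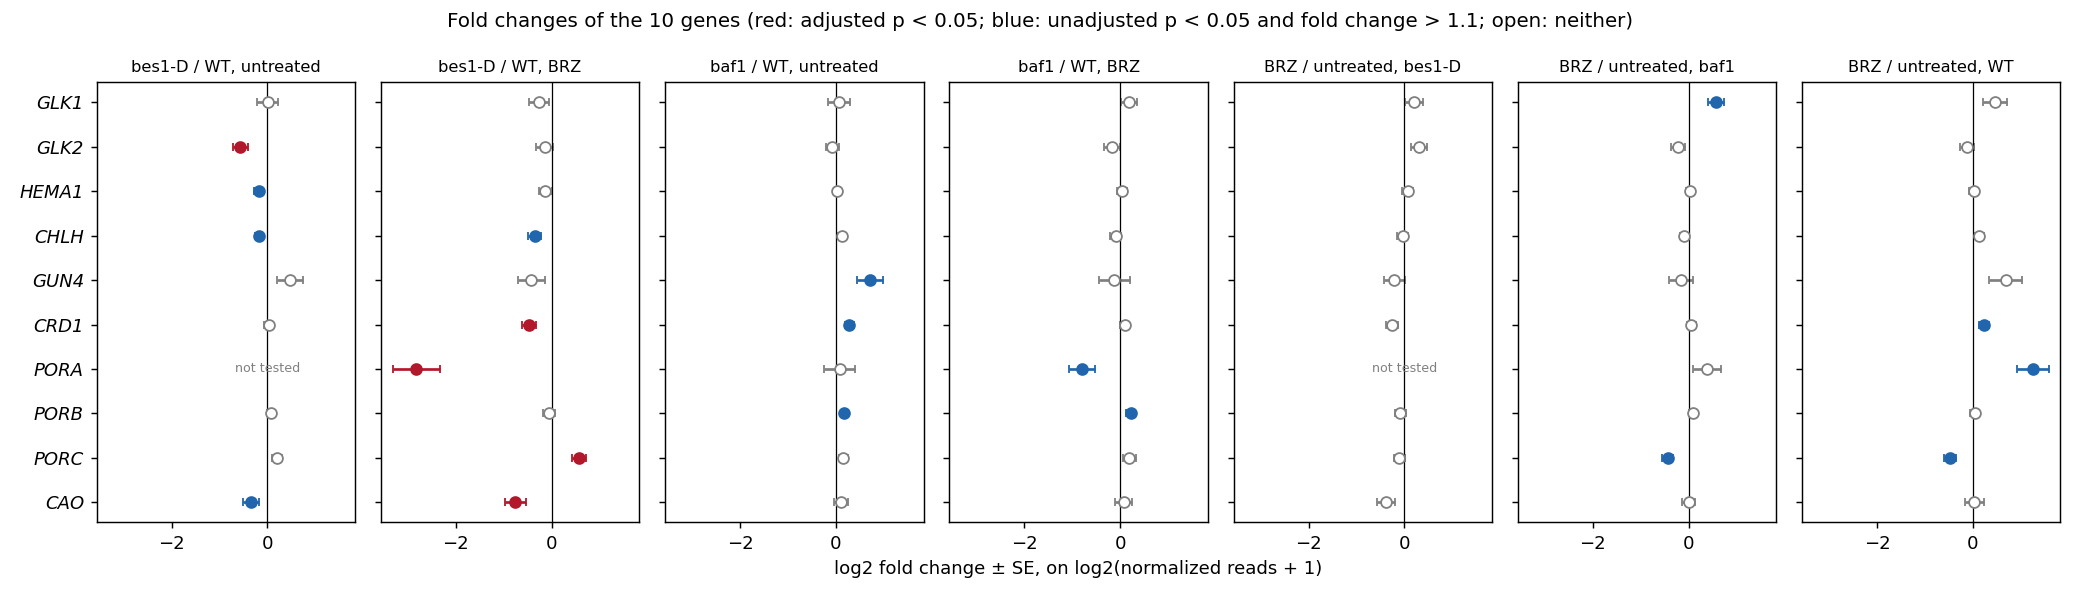
Log2 fold change with its standard error (horizontal axis) of each gene in 7 comparisons, in red at an adjusted p below 0.05, in blue at the study criterion alone and open otherwise. PORA in bes1-D against WT on BRZ was at -2.82, and PORC in the same comparison was at 0.57. PORA reached the minimum mean there only through its WT libraries, and without that filter its limma adjusted p was 0.135.

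The 2 mutants were also set against each other, since the study linked both to the amount of BES1. In untreated seedlings, 2 of 9 tested genes, GLK2 and CHLH, fell in bes1-D relative to baf1 at the adjusted threshold, where 3.26% of all genes fell. At the study criterion 5 were lower, with HEMA1, CRD1 and CAO added, against 7.5% of all genes. On BRZ, 3 of 10 fell at the adjusted threshold, CRD1, PORA and CAO, where 3.49% of all genes fell, and PORA entered only through its baf1 libraries. At the study criterion 6 were lower, with GLK1, CHLH and PORB added, against 9.61% of all genes. PORC was higher there at the study criterion. With 1 library left out, the study count on BRZ ran from 2 to 7. On BRZ there were 0 calls at the adjusted threshold without bes1-D replicate 3, and 1 without baf1 replicate 2 or 3. The comparisons share their bes1-D libraries with those against WT, so the lower values in both are not separate evidence.

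BRZ treatment was then compared with untreated seedlings within each genotype. At the adjusted threshold in limma, 0 of the genes were called, where 0.576% of all genes were in bes1-D, 1.8% in baf1 and 0.605% in WT. The counts at an unadjusted p below 0.05 were 0 for bes1-D, 2 for baf1 and 3 for WT, and the same genes met the study criterion, as did 14.6% of all genes in bes1-D, 12.5% in baf1 and 10.2% in WT. The 3 in WT were PORA and CRD1, both higher, and PORC, lower. CRD1 had 1275, 1356 and 1485 normalized reads in WT on BRZ, against 1040, 1235, 1267 and 1131 in untreated WT, a log2 fold change of 0.23 (SE 0.10, limma adjusted p = 0.463). The 2 in baf1 were GLK1, higher, and PORC, lower. The interaction of genotype and BRZ gave 0 calls among the 10 genes at the adjusted threshold in limma for either mutant, where 0% of all genes were called for baf1 and 0.239% for bes1-D. At an unadjusted p below 0.05 there was 1 gene for baf1, PORA, where 5.79% of all genes met the study criterion. There were 3 for bes1-D, PORA, CRD1 and PORC, where 13.7% of all genes met it. PORA reached the minimum mean of 10 in the bes1-D fit only with the WT libraries on BRZ, where it was highest.

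The other genes of the pathway were counted by branch. Calls of single genes in these and the later lists were not tried with libraries left out or under the other settings. The list of early steps from glutamate to protoporphyrin left out HEMA1 and also held FLU and GBP, which encode no enzyme of these steps. It had 13 tested genes of 15. Their log2 fold changes ran from 0.12 to 0.71 in untreated bes1-D and from 0.07 to 0.91 in untreated baf1. Both mutants were set against the same 4 WT libraries. In bes1-D 3 of them rose at the adjusted threshold, where 4.09% of all genes rose. They were GBP, which binds glutamyl-tRNA reductase, with a log2 fold change of 0.66 (SE 0.18, limma adjusted p = 0.0364), porphobilinogen deaminase HEMC with 0.46 and protoporphyrinogen oxidase PPOX1 with 0.46. In baf1 7 were higher at the study criterion, beside the 6% of all genes, and none passed the adjusted threshold. The medians were 0.46 in bes1-D and 0.32 in baf1, against 0.08 and 0.04 over all genes. On BRZ the medians were 0.07 and 0.06, and 1 gene rose in bes1-D, the aminolevulinate dehydratase gene HEMB1, by 0.50 on the log2 scale (SE 0.14, limma adjusted p = 0.019), beside the 5.76% of all genes that rose.

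The other 8 genes of the chlorophyll branch had log2 fold changes from 0.01 to 0.46 in untreated bes1-D and from 0.11 to 0.41 in untreated baf1, against the same WT libraries. The lowest, CHLP in bes1-D (SE 0.08), lay within the shift of -0.07 that median-of-ratios size factors brought to all genes there. Of the 8, DVR, the divinyl reductase gene (0.46), and LCAA, a YCF54-type cyclase subunit gene (0.44), rose in bes1-D at the adjusted threshold. These were 2 of 8, beside the 4.09% of all genes that rose. On BRZ DVR rose again in bes1-D, with 0.55 (SE 0.15, limma adjusted p = 0.0179), and CHLP, which makes the phytol tail, fell by 0.53 (SE 0.14, limma adjusted p = 0.0137). Each was 1 of 8, where 5.76% of all genes rose and 5.3% fell. Of the 5 tested genes of heme and bilin synthesis, none passed the adjusted threshold against WT in either mutant. The ferrochelatase gene FC2 fell by 0.39 (SE 0.11, limma adjusted p = 0.0328) in untreated bes1-D relative to baf1, 1 of 5 beside 3.26% of all genes. Of the 9 tested genes of chlorophyll breakdown, 1 rose in bes1-D on BRZ, beside the 5.76% of all genes. It was NYC1, a chlorophyll b reductase gene, which rose by 0.68 (SE 0.14, limma adjusted p = 0.00342). The chlorophyllase gene CLH1 fell by 1.03 in baf1 on BRZ relative to untreated baf1 (SE 0.23, limma adjusted p = 0.0277), with values of 0.04 for BRZ in bes1-D and -0.67 in WT. For BRZ in baf1 it was 1 of 9, beside 0.885% of all genes that fell.

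Most genes of the light-harvesting antenna, which bind the finished pigment, were lower in bes1-D. Against WT in untreated seedlings 2 went the other way. LHCB4.3 was higher by 0.97 (SE 0.40, limma adjusted p = 0.155), at the study criterion only, and LHCA2 by 0.27 (SE 0.20), which was uncalled. In untreated bes1-D 11 of 18 antenna genes fell at the adjusted threshold, beside the 3.44% of all genes, and on BRZ 13 of 18 did, beside the 5.3% of all genes. Relative to baf1 16 of 18 fell in untreated seedlings, beside the 3.26% of all genes, and 12 of 17 tested fell on BRZ, beside the 3.49%. Summed over the list they took 177100 to 190400 normalized reads in untreated bes1-D, against 246300 to 251300 in untreated baf1 and 252000 to 258000 in untreated WT. On BRZ the sums were 175900 to 180100 in bes1-D, 264300 to 299900 in baf1 and 292500 to 297300 in WT. The 4 largest changes on BRZ against WT were those of LHCB2.3 (-1.83, SE 0.17), LHCB1.1 (-1.27, SE 0.17), LHCB2.1 (-1.21, SE 0.13) and LHCB2.2 (-1.16, SE 0.13). Members of the LHCB1 and LHCB2 families are near-identical, and how reads were divided among them is uncertain. In WT 9 of 17 tested antenna genes were higher on BRZ at the study criterion, where 5.29% of all genes were, with none past the adjusted threshold. In baf1 3 rose at the adjusted threshold, LHCB2.2, LHCB1.4 and LHCB1.3, where 0.916% of all genes rose. In bes1-D on BRZ LHCB2.3 fell by 0.78 (SE 0.14, limma adjusted p = 0.0128) relative to untreated bes1-D, 1 of 18 beside 0.448% of all genes.

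**Figure D3:**
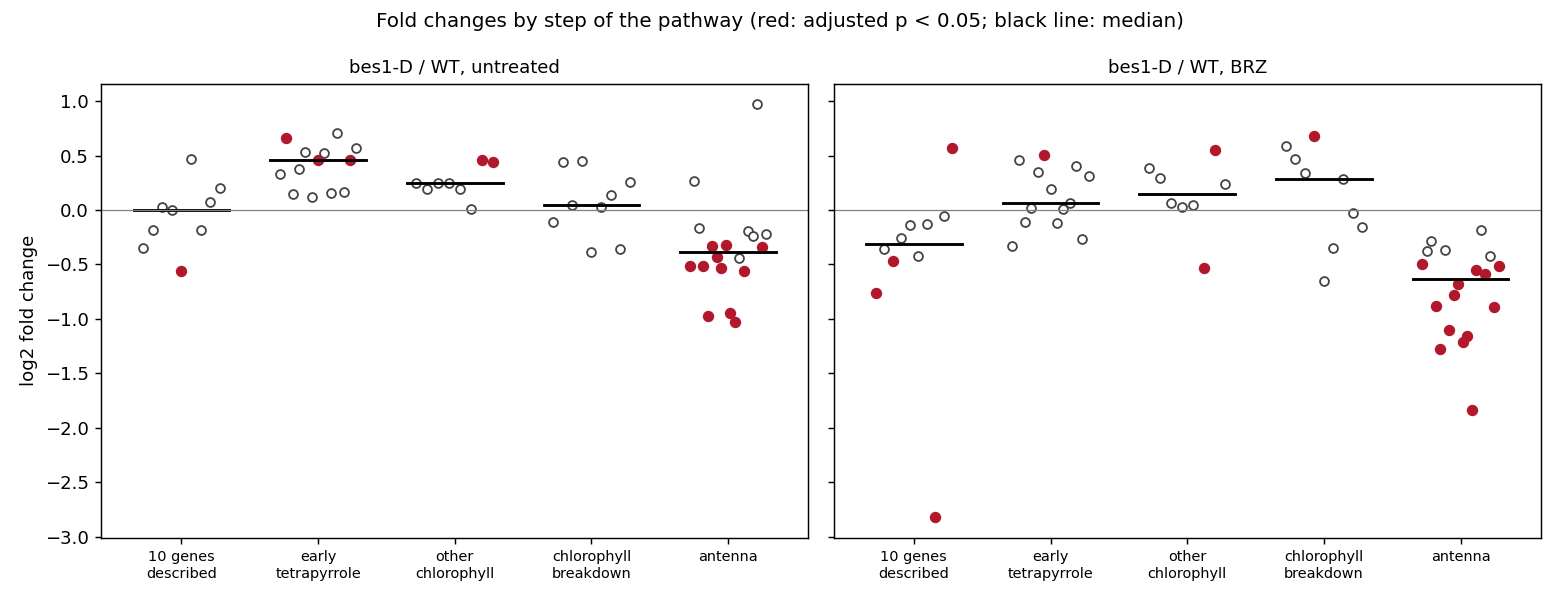
Log2 fold change (vertical axis) of each tested gene in bes1-D against WT, untreated and on BRZ, by group of the pathway, with the group's median as a black line and genes at an adjusted p below 0.05 in red. The early steps had a median of 0.46 in untreated seedlings, and the antenna had medians of -0.39 untreated and -0.63 on BRZ.

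Among 11 other regulators of greening, PIF3, a bHLH factor of light signalling, fell by 0.95 on the log2 scale in untreated bes1-D (SE 0.21, limma adjusted p = 0.0104) and fell by 1.45 in bes1-D on BRZ (SE 0.23, limma adjusted p = 0.000269). BBX22, a B-box factor of light signalling, fell by 0.54 in untreated bes1-D and fell by 0.66 in bes1-D on BRZ. PIF3 and BBX22 were 2 of 11 in each comparison, where 3.44% of all genes fell untreated and 5.3% on BRZ. GUN1, a protein of plastid signalling, rose in bes1-D on BRZ by 0.53 (SE 0.14, limma adjusted p = 0.0213), 1 of 11 beside the 5.76% of all genes. PIF1, a bHLH factor known to hold back chlorophyll synthesis in the dark, rose in bes1-D relative to baf1 on BRZ by 0.75 (SE 0.16, limma adjusted p = 0.00827). It was 1 of 11, where 3.57% of all genes rose. No regulator passed the adjusted threshold in baf1 against WT.

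Whole seedlings mix tissues, so fewer green cells and less RNA per green cell cannot be told apart. Of 10 shoot markers, mostly genes of carbon fixation, 3 rose in untreated bes1-D at the adjusted threshold, beside the 4.09% of all genes, and none fell. Their sum ran from 60880 to 67240 normalized reads in untreated bes1-D, against 36400 to 62270 in untreated WT. The 36400 was that of WT replicate 5, and the other WT libraries ran from 54470 to 62270. In untreated baf1 the sum ran from 61390 to 70940. On BRZ it ran from 42870 to 62610 in bes1-D, 37360 to 61040 in baf1 and 40370 to 53810 in WT, and 2 markers rose and 1 fell in bes1-D relative to WT, beside 5.76% and 5.3% of all genes. On BRZ relative to untreated seedlings 1 shoot marker of 10 fell in bes1-D, beside 0.448% of all genes, 3 fell in baf1, beside 0.885%, and none in WT. Of 11 root markers, 10 of them tested, 3 fell in untreated bes1-D relative to WT, beside the 3.44% of all genes, and 4 fell on BRZ, beside the 5.3%, while their sums overlapped. No shoot or root marker was listed at 0 in any library. Transcripts of 11 seed storage genes summed to 8.13 to 16.0 normalized reads in bes1-D on BRZ, 139 to 1751 in baf1 on BRZ and 24.3 to 291 in WT on BRZ. In untreated seedlings the sums were 11.4 to 15.3 in bes1-D, 5.62 to 495 in baf1 and 9.45 to 77.6 in WT. None of the 11 was at 0 in every library of a group. The part of these tissue differences in the results was not tested.

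Directions over all genes depended on the scaling. In untreated bes1-D against WT 54.3% of the calls at the adjusted threshold were higher genes, and 35.6% with median-of-ratios size factors. At the study criterion the shares were 63.8% and 46.9% there, 58.4% and 44.4% in untreated baf1 against WT, and 59% and 47.5% in untreated bes1-D against baf1. With those size factors no called gene of the 10 changed direction, while GLK1 and CRD1 in untreated bes1-D against WT, HEMA1 on BRZ in WT and CAO on BRZ in baf1, all uncalled and near 0, did.

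Over the 22 libraries, 30 of the 45 pairs of the 10 genes had a positive correlation of log2(normalized reads + 1), with a median r of 0.33. Within groups, after the group means were taken out, 29 pairs were positive, with a median r of 0.20. The highest r over all libraries was that of CHLH and CAO (0.82), and the lowest that of PORA and PORC (-0.56). Within groups the highest was that of PORB and CAO (0.83). The lowest there were those of GUN4 with PORC (-0.76) and with CHLH (-0.71). The libraries share genotype, treatment and depth, so these values are descriptions. Among 9239 other genes averaging 50 or more normalized reads, those most like GLK1 over the 22 libraries were LCB2 (AT5G23670, r = 0.80), HAL3A (AT3G18030, r = 0.80), AT3G49810 (r = 0.78), AT2G07732 (r = 0.78) and MMZ3 (AT2G36060, r = 0.76). Those most like GLK2 were PRR7 (AT5G02810, r = 0.72), a clock gene, the BR receptor gene BRI1 (AT4G39400, r = 0.69), AT5G02540 (r = 0.68), AT5G57760 (r = 0.67) and BIM1 (AT5G08130, r = 0.67), which encodes a bHLH partner of BES1.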

How the data were processed

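The authors built QuantSeq 3′ mRNA libraries from total RNA of whole seedlings, sequenced them and mapped the reads to TAIR10 with a QuantSeq pipeline. The processing notes of the submitters also name STAR, HTSeq and edgeR, without roles or versions. The authors deposited 1 table of normalized signal per gene, adjusted to a common library size and not whole numbers, so no count model was fitted. Depth was estimated from the spacing of low values. No counting interval is given, because the values are not counts.

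Groups came from the sample labels, and columns were matched by name, with 0 sample columns left out. Groups were compared with limma 3.58.1 under R 4.3.3 (functions lmFit and eBayes, trend on) on log2(value + 1) for genes averaging 10 or more, with Benjamini-Hochberg adjustment over all genes tested, since the count test of the study could not be used on these values. Single genes were compared with exact permutation tests. The fit was tested on simulated data. Promoter windows and gene names came from RefSeq TAIR10.1, whose coordinates are not those of the authors' mapping. Plots were drawn with matplotlib 3.10.9.

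The 10 genes and the other lists were chosen with earlier results of these data known. All 10 genes are named. From the other lists, genes at an adjusted p below 0.05 are named, up to the 4 with the largest change, and the 5 genes most like GLK1 and GLK2. Alternatives were pseudocounts of 0.1 and 5, no filter, a minimum of 50, size factors by median of ratios, each library left out, a fold change above 1.5, 1 joint fit over the 22 libraries, and a block for replicate number.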

Additional observations from a re-analysis of the deposited data

Results flagged for a closer look

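The 10 genes in the groups of 4 libraries gave 40 sets of 4 values, each screened for a library far from the others, and chance marks about 1 in 20 such groups. There were 2. CHLH was at 1141 normalized reads in untreated baf1 replicate 2, against 1016 to 1028 in the other baf1 libraries, and the gap to the nearest was 0.901 of the range. GUN4 was at 37.8 normalized reads in untreated bes1-D replicate 2, against 53.0 to 54.4 in the others, with a gap of 0.918 of the range. No interaction of genotype and BRZ passed the adjusted threshold for any of the 10 genes in limma.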

How the results depend on the processing

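Of 1660 values of single genes under the alternatives, 1535 kept their direction and side of the study criterion, 83 lost the call and 42 gained it. No called value changed sign, and 63 uncalled values did. Without a filter on low values, the number of the 10 genes past the adjusted threshold was 0 in bes1-D against WT and against baf1, untreated and on BRZ, and 1 gene met the study criterion for BRZ in bes1-D. The cause was not tested. With a minimum mean of 50 the study criterion gave 1 gene in baf1 against WT on BRZ and 0 in the baf1 interaction. With median-of-ratios size factors it gave 1 in baf1 against WT on BRZ and 1 for BRZ in bes1-D, and 4 genes passed the adjusted threshold in untreated bes1-D against baf1. In the fit to all 22 libraries the adjusted counts were 1 for BRZ in WT, 1 for BRZ in baf1, 1 in untreated bes1-D against baf1 and 5 on BRZ, and the study counts were 1 in baf1 against WT on BRZ, 2 for BRZ in bes1-D and 0 in the baf1 interaction. At a fold change above 1.5 the study counts were 1 in untreated baf1 and 0 in untreated bes1-D against WT, 1 in baf1 and 2 in bes1-D against WT on BRZ, 1 for BRZ in WT and 0 in baf1, 0 in untreated bes1-D against baf1 and 2 on BRZ, and 1 in the bes1-D interaction.

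In 0 of the 5 comparisons with 3 or more pairs did the deviations of same-numbered replicates correlate above 0.1 in every pair, so the numbers were not taken to pair the libraries. Libraries numbered 1 correlated positively in every comparison, from 0.0121 for BRZ in baf1 to 0.251 in bes1-D against WT on BRZ. The other numbers gave both signs, and a batch shared by the libraries numbered 1 alone was not tested. With the replicate block, 2 genes passed the adjusted threshold in untreated bes1-D against WT and 4 in untreated bes1-D against baf1, and the study criterion gave 1 gene for BRZ in bes1-D and 2 in the baf1 interaction. The call of CAO in bes1-D against WT on BRZ was lost with the block (limma adjusted p = 0.0541).

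With single libraries left out, the adjusted counts ran from 0 to 1 in untreated bes1-D against WT, 1 to 4 on BRZ, 1 to 3 in untreated bes1-D against baf1, 0 to 3 on BRZ, and 0 to 1 for BRZ in WT and in baf1. They stayed at 0 in baf1 against WT, for BRZ in bes1-D and in both interactions. The low of 1 in bes1-D against WT on BRZ was PORA alone, which entered that comparison only through its WT libraries. CRD1, PORC and CAO were all lost there without WT replicate 3 or bes1-D replicate 3. The study counts ran from 1 to 4 in untreated baf1, 1 to 3 in untreated bes1-D, 1 to 2 in baf1 and 4 to 6 in bes1-D against WT on BRZ, 2 to 4 for BRZ in WT, 2 to 2 in baf1, 0 to 2 in bes1-D, 4 to 5 in untreated bes1-D against baf1, 2 to 7 on BRZ, 0 to 2 in the baf1 interaction and 1 to 4 in the bes1-D interaction. PORA had 1.67 to 8.04 normalized reads in bes1-D on BRZ, where a difference of a few reads is a large share of the value.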
